A study of Mus musculus with 18 samples.

Results

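The comparison is between 2 groups of microarrays from 1 line of mouse embryonic stem (ES) cells, the line labelled KO. Of the 18 arrays of the series, 6 were chosen by their titles: the 3 KO arrays titled 8h and the 3 titled 0h, replicates a, b and c of each. The cells were of strain 129SV. By their labels, which both lines share, they were knocked out for Esrrb, an orphan nuclear receptor of the pluripotency network, and expressed the fusion Raf-ErT2. The KO line carried an empty vector. The other line, labelled Rescue, differed by an Esrrb transgene in place of the empty vector, and its 3 arrays titled 0h and 3 titled 8h serve here as a second instance of the same treatment. All cells were grown with serum, LIF and 2 uM Chir99021, an inhibitor of the kinase GSK3. For the 24 h before treatment the medium held serum, LIF and 250 nM PD173074, an FGF receptor inhibitor. The 0h cells were then left untreated, and the 8h cells received 250 nM 4-hydroxytamoxifen (4OHT) for 8 h. Another KO group, titled 8h2h, had a further 2 h with an inhibitor of the kinase Mek. The labels name no vehicle control, so effects of 4OHT other than through the fusion cannot be told apart from effects of the kinase. No group titled 8h was left untreated, so effects of time in culture cannot be told apart either. How many clones each line stands for, the promoter that drives Raf-ErT2 and whether replicates were separate cultures are not stated, so the p-values measure the spread between these arrays.

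Titles and source names disagree on the treated groups. On all 12 arrays titled 8h or 8h2h the source name gives the other treatment, so that by source name the 8h arrays described here had the 2 h with the Mek inhibitor and the 8h2h arrays did not. The 0h arrays are untreated by both. Groups follow the titles throughout, and the 8h2h values are set beside the main ones at the end.

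Raf, Mek and ERK are kinases that act in sequence. In Raf-ErT2 the Raf kinase domain is joined to a modified estrogen receptor hormone-binding domain, which holds it inactive until 4OHT binds. Active ERK induces immediate-early transcription factors within minutes and also induces its own inhibitors, the dual-specificity phosphatases and the Sprouty proteins. In ES cells, FGF4 acting through ERK is known to drive exit from the naive state, and inhibitors of Mek, GSK3 or the FGF receptor help to hold cells in it.

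Levels are log2 values of Agilent's processed signal minus the array's 75th percentile, so a level of 0 is that percentile, and changes are 8h minus 0h on the log2 scale. On the 0h arrays 46.6% to 51.1% of probes were well above background, and on the 8h arrays 51% to 56.4%. The 75th percentile ranged from 369 to 558 intensity units at 0h and from 500 to 765 at 8h. Each replicate letter was 1 slide that carried all 6 groups. A group's position was fixed across slides, so effects of position and of group cannot be told apart. A gene was called when its Benjamini-Hochberg adjusted p in limma was below 0.05 over all 16022 genes tested. "Rose" and "fell" are used of called genes alone, and errors after ± are SE unless marked SD. Where no array of 1 group was well above background, the difference is given as a bound ("at least"). The markers of ES cells were present: all 8 listed ones, Pou5f1, Sox2, Nanog, Zfp42, Utf1, Lin28a, Sall4 and Dppa5a, were read above background in both groups, with a summed linear level of 646 to 691 times the 75th percentile at 0h and 561 to 670 at 8h.

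Esrrb itself did not behave as the label KO says. The level of Esrrb was 5.08, 4.74 and 5.27 on the 0h arrays (replicates a, b and c) and 4.09, 3.50 and 3.65 on the 8h arrays, well above background on every one. On the Rescue arrays titled 0h it was 4.13, 4.21 and 4.87, so the arrays labelled KO were not the lower ones. The gene was read from 1 probe, and no source used here places it inside or outside the deleted part, so it cannot check the deletion. Between 0h and 8h Esrrb fell in the KO-labelled line, with a change of -1.28 ± 0.26 (SE, adjusted p = 0.00223) and no overlap of the groups. The 8h arrays did not overlap the 0h arrays for 43.2% of all genes tested, called or not. In the Rescue-labelled line Esrrb also fell, by 2.49 on the log2 scale (adjusted p = 6.5e-06). The difference between those changes, 1.21, did not pass (adjusted p = 0.135).

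Between 0h and 8h 4077 of 16022 genes changed, which is 25.4%. Of these 1913 rose (11.9%) and 2164 fell (13.5%), and the median change over all genes was -0.04. Counts for lists and families below stand beside these shares. The direction was the same on all 3 slides for 4069 of the called genes, or 99.8%, against 63.2% of all genes. Among the 3508 called genes read above background on all 6 arrays, 178 rose and 89 fell by at least 4-fold, and 48 rose and 18 fell by at least 8-fold. Without scaling between arrays the median of all genes moved to 0.28, and the calls were 1447 higher and 381 lower. Calls that are higher thus made up 46.9% with scaling and 79.2% without it, and changes here are relative to the 75th percentile. Slide b gave smaller changes than the others: the median size over called genes was 0.88 on slide a, 0.73 on slide b and 1.00 on slide c.

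**Figure D1:**
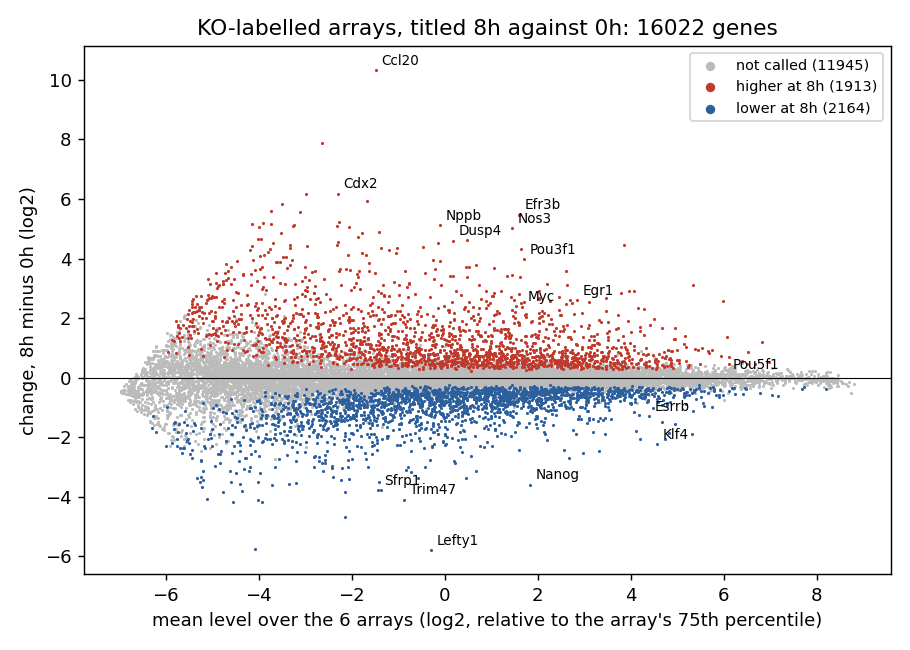
Change from 0h to 8h (log2) against the mean level over the 6 KO-labelled arrays (log2, relative to each array's 75th percentile), 1 point per gene; red points rose (1913), blue points fell (2164) and grey points were not called. The highest point, Ccl20, was not above background at 0h, so its height is a fitted value and not a measured fold.

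The genes that rose most came from several classes of signalling protein and regulator. Efr3b, which anchors a lipid kinase at the plasma membrane, had levels of -1.22, -1.07 and -1.09 on the 0h arrays (replicates a, b and c) and 4.05, 4.04 and 4.92 on the 8h arrays. Its rise of 5.46 ± 0.25 (adjusted p = 3.8e-09) was 44.1-fold, the largest rise among genes read above background on all 6 arrays. Nppb, the precursor of brain natriuretic peptide, stood at -2.64, -2.89 and -2.42 at 0h and 2.16, 2.33 and 2.89 at 8h. Nos3, the endothelial nitric oxide synthase, went from -0.76, -1.36 and -1.06 to 4.33, 3.25 and 4.29. In these genes, picked for their large changes, every 8h array was above every 0h array. Of all genes tested, 43.2% had groups apart in either direction. Vgf, a secreted neuropeptide precursor, stood at -1.99, -1.0 and -2.46 at 0h and 2.56, 2.88 and 2.93 at 8h. Fhl2, a LIM-domain cofactor induced by serum response factor (SRF), stood at -2.22, -2.01 and -3.01 at 0h and 1.93, 1.83 and 2.58 at 8h, with a change of 4.53 ± 0.24 (SE, adjusted p = 1.0e-08). Others of the 20 highest were Dusp4 (4.59), Phlda1 (4.45), Skor1 (4.39), Nlrc4 (4.37), Cdc42ep1 (4.36), Ankrd66 (4.28), Ptprn (4.17), Sp5 (4.12), Pou3f1 (3.97), Msx1 (3.94), Fgfr4 (3.93), Npcd (3.78), Wnt6 (3.71) and Ociad2 (3.70). All 20 also rose in the Rescue-labelled line, where 29.1% of all genes were called (13% higher, 16.1% lower). On slide b the change was the smallest of the 3 slides for 16 of the 20.

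**Figure D2:**
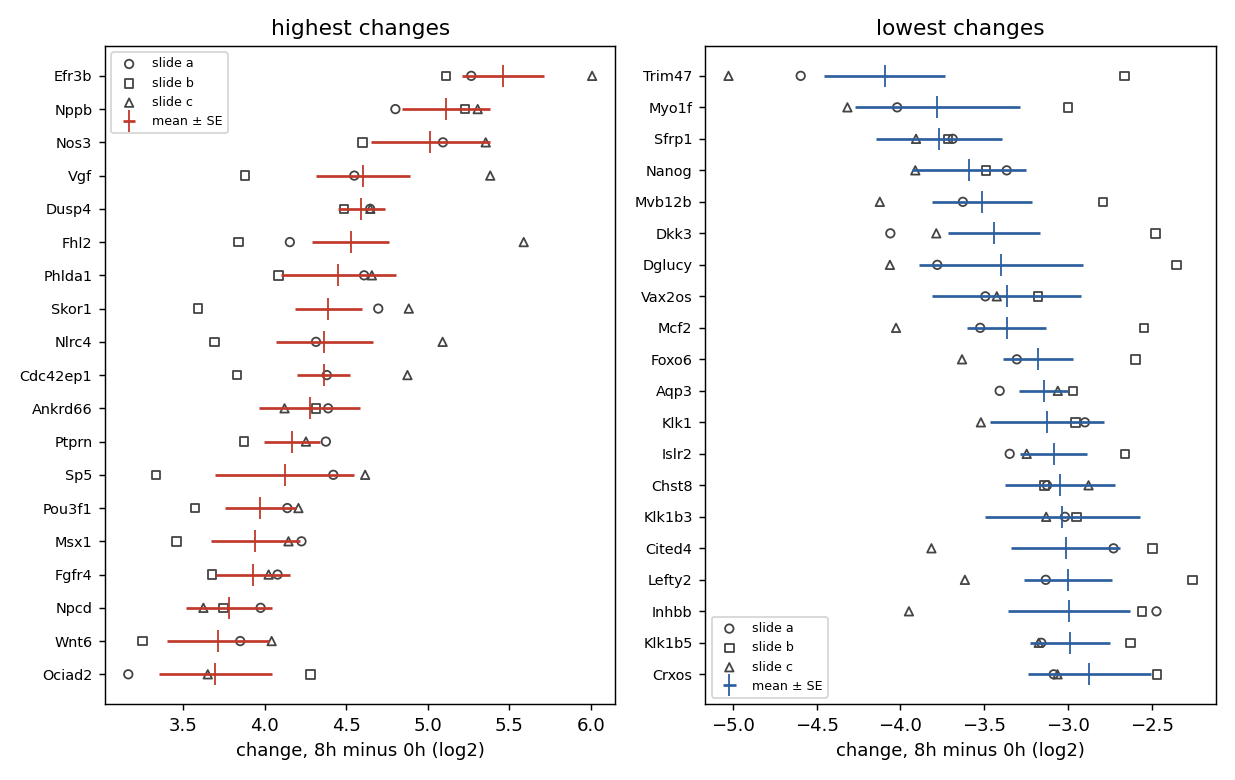
Change from 0h to 8h (log2) on each of the 3 slides (circles, squares and triangles for slides a, b and c) for 19 of the 20 highest and all 20 lowest called genes read on all 6 arrays; vertical ticks and bars are the mean ± SE. The highest lie between a mean of 3.70 (Ociad2) and 5.46 (Efr3b), and slide b is the smallest for 15 of the 20 lowest.

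A further 246 genes were read on all 3 8h arrays and on no 0h array, against 44 the other way. The percentage of probes above background was also higher at 8h, as given above, and its part in these counts was not tested. The largest bound was for Ccl20, a chemokine, whose level at 8h was 3.35, 3.62 and 4.11, at least 280-fold higher than at 0h. Next came Grm6, a glutamate receptor (at least 53.6-fold), Cyp26a1, which degrades retinoic acid (at least 49.2-fold), Cdx2, a homeobox factor of trophectoderm and hindgut (at least 37.5-fold), Btbd17 (at least 29.8-fold), the retinoid receptor gene Rxrg (at least 25.4-fold), Aldh1a3, a retinaldehyde dehydrogenase (at least 23.2-fold), Lgals7 (at least 19.6-fold), Mal (at least 17.3-fold) and Slc35f1 (at least 14.4-fold). The bound for Grm6 is from its brightest probe, and its other probe had a smaller fitted change, 4.13 against 7.89 on the log2 scale. Genes read at 0h and no longer at 8h had smaller bounds. They were led by Hhip, a membrane inhibitor of hedgehog ligands (at least 12.6-fold lower), Hlf (at least 8.18-fold), Pknox2 (at least 7.47-fold), Sirpa (at least 6.11-fold), Pramel30 (at least 5.68-fold), Saxo1 (at least 5.27-fold) and Rnf144b (at least 5.25-fold).

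Among the inhibitors that ERK is known to induce against itself, the Sprouty genes tested were higher at 8h, and the phosphatases were split. Of 11 dual-specificity phosphatases 5 rose and 1 fell (5 and none without scaling). Those that rose were Dusp4 (4.59), Dusp2 (3.19), Dusp5 (2.71, read well above background on 1 of 3 0h arrays), Dusp6 (2.25) and Dusp1 (2.24). Dusp6, the cytoplasmic phosphatase selective for ERK, had levels of 2.37, 2.30 and 2.34 on the 0h arrays (replicates a, b and c). On the 8h arrays it had 4.64, 4.56 and 4.56 (adjusted p = 6.4e-06). The groups did not overlap, as for 43.2% of all genes tested. Dusp4, a nuclear ERK phosphatase, stood at -2.38, -1.98 and -2.0 at 0h and 2.27, 2.51 and 2.65 at 8h. Dusp14 fell (-1.01), while in the Rescue-labelled line it rose by 1.04, and that difference passed the test (adjusted p = 0.0258). The median change of the list was -0.27 (0.05 without scaling), and Dusp7 (-0.40), Dusp8 (-0.30), Dusp9 (-0.27), Dusp10 (-0.41) and Dusp16 (-0.65) were not called. With the slide as a replicate block Dusp16 passed (adjusted p = 0.0391).

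Of 6 Sprouty and Spred genes tested, whose proteins block the path from receptors to Raf, 5 rose and none fell. Spry4 stood at -2.28, -2.31 and -2.38 at 0h and 0.58, 0.40 and 1.16 at 8h, with a change of 3.04 ± 0.38 (SE, adjusted p = 3.1e-05). Spry2 stood at 1.49, 1.49 and 1.03 at 0h and 3.54, 3.53 and 3.73 at 8h. Neither gene's groups overlapped, as for 43.2% of all genes tested. The others were Spred1 (1.54), Spred3 (1.37, read well above background on 2 of 3 0h arrays) and Spry1 (1.34), and Spred2 was not called (0.29). The kinases and adaptors of the cascade moved less, and their counts stand beside 11.9% of all genes higher and 13.5% lower. Of 27 tested, 4 rose, among them Braf (0.83), Shc1 (0.81) and Errfi1 (0.81), and 5 fell, among them Sos1 (-0.49), Mknk2 (-0.43), Ptpn11 (-0.36) and Araf (-0.33), and none of the 5 falls was called without scaling. Different probes for Ptpn11 and for Araf moved in opposite directions, and the mean of the probes for Araf was 0.102. Mapk3, which codes for an ERK kinase, was not called (-0.15).

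**Figure D3:**
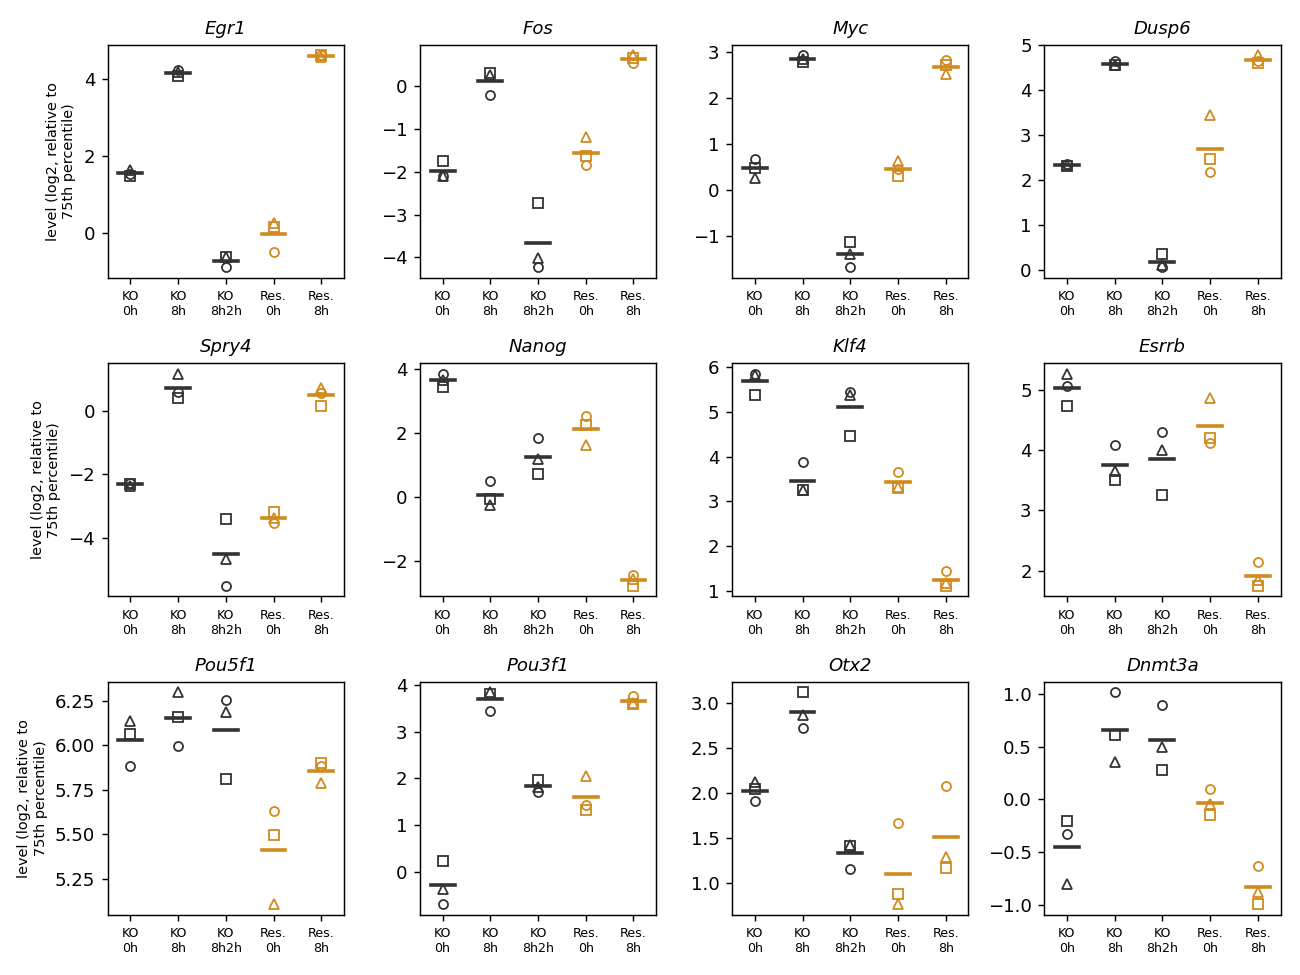
Levels (log2, relative to the array's 75th percentile) of 12 genes on every KO-labelled array titled 0h, 8h and 8h2h (grey) and every Rescue-labelled array titled 0h and 8h (orange); circles, squares and triangles are slides a, b and c, lines are group means, and each panel has its own axis. Egr1, Fos, Myc, Dusp6 and Spry4 are higher on every KO 8h array than on every KO 0h array, Nanog, Klf4 and Esrrb are lower, and Pou5f1 overlaps.

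Immediate-early transcription factors were still raised at 8 h. Of 33 tested, 22 rose and none fell, against 11.9% and 13.5% of all genes, and the median change was 1.20. Without scaling 21 rose and none fell. Egr1, a zinc-finger factor and classical readout of ERK, had levels of 1.53, 1.48 and 1.63 on the 0h arrays (replicates a, b and c) and 4.22, 4.07 and 4.16 on the 8h arrays, with a change of 2.60 ± 0.15 (SE, adjusted p = 3.5e-08). Fos, an AP-1 subunit, stood at -2.09, -1.74 and -2.09 at 0h and -0.20, 0.30 and 0.27 at 8h. Myc, the growth regulator, stood at 0.67, 0.48 and 0.27 at 0h and 2.94, 2.79 and 2.85 at 8h, with a change of 2.39 ± 0.14 (SE, adjusted p = 3.5e-08). In none of these genes did the groups overlap, as for 43.2% of all genes tested. Egr3 was not above background on any 0h array and was at least 11.2-fold higher at 8h. Among the other rises were Fosl1 (3.57, read well above background on 2 of 3 0h arrays), Fosl2 (2.55, read well above background on 1 of 3 0h arrays), Ier5 (2.33), Zfp36l2 (2.15), Csrnp1 (1.86), Zfp36 (1.71), Maff (1.63), Egr2 (1.50, read well above background on 1 of 3 0h arrays), Junb (1.50), Nab2 (1.26) and Jun (1.22). Atf3, read well above background on no 0h array and on 2 of 3 8h arrays, was also called higher. Zfp36 and Zfp36l2 code for proteins that promote decay of mRNAs with AU-rich elements, and Nab2 for a corepressor of EGR factors. The NR4A receptors, also immediate-early genes, were not called: Nr4a1 (0.41), Nr4a2 (0.52) and Nr4a3 (0.14). Srf itself was not called (-0.29).

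SRF binds the CArG box, which is CC, then 6 bases that are A or T, then GG. Among the 20 highest genes and the immediate-early genes that rose, RefSeq promoter windows (GRCm38.p6, from 250 bases before to 50 bases after a start) were searched on both strands for the CArG box and for the cyclic AMP response element (CRE), TGACGTCA. Windows with a match in the 150 bases before a start are shown for Fhl2, which has a box before each of 2 starts, and for Zfp36, Egr2 and Maff. Each is the 150 bases before the start, 5′ to 3′ on the gene's strand, with the box or element in capitals.
Fhl2 chr1:43196762-43196911 (minus strand): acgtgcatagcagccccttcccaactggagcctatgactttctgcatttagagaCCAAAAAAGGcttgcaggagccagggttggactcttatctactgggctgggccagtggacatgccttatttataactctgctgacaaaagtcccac
Fhl2 chr1:43163962-43164111 (minus strand): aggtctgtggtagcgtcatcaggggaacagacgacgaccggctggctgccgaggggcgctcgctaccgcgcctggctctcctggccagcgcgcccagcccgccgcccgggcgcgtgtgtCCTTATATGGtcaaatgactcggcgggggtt
Zfp36 chr7:28379229-28379378 (minus strand): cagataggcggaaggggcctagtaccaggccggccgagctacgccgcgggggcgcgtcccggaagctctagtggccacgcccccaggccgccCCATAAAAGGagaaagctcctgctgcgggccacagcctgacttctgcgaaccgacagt
Maff chr15:79347370-79347519 (plus strand): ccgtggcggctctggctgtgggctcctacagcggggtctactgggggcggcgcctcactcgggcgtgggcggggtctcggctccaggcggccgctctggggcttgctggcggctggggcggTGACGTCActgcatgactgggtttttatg
Egr2 chr10:67537416-67537565 (plus strand): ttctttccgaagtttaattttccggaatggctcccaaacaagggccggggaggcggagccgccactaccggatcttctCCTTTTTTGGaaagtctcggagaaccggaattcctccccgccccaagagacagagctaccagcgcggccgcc
The CArG boxes begin 96 and 31 bases before the 2 starts of Fhl2, 58 before that of Zfp36 and 72 before that of Egr2, and the CRE begins 29 bases before the start of Maff. A CArG box was present in 1.51% of the 15940 windows of tested genes (12673 of the 16022 genes had a window), in 2.22% of windows of genes that rose and in 1.55% of windows of genes that fell. Of the immediate-early genes that rose, 16 had a window and 2 held a box, in 5 of 25 windows, some of which overlap. The AP-1 motif TGANTCA was in 5.65%, 7.17% and 5.17% of the same 3 sets, the CRE in 2.82%, 2.48% and 3.18%, the ETS motif CCGGAAGT in 6.7%, 6.19% and 3.23%, and the EGR motif GCGTGGGCG in 1.04%, 1.55% and 1.33%. A CRE does not count as an AP-1 match, since it has 1 base more between the outer letters. These shares are descriptions with no test.

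Among ETS factors, the DNA-binding proteins that ERK phosphorylates or induces, 2 of 16 rose and 3 fell, against 11.9% and 13.5% of all genes. The rises were Etv4 (1.78) and Etv6 (0.75). The falls were Spic (-4.67, read well above background on 1 of 3 8h arrays), Elf3 (-2.17) and Elf4 (-1.58). Etv4 stood at 3.59, 3.38 and 3.64 at 0h and 5.56, 5.04 and 5.34 at 8h, with a change of 1.78 ± 0.29 (SE, adjusted p = 0.000422). Its relative Etv5 was not called (-0.33), and lay at the threshold with the slide as a replicate block (adjusted p = 0.05). Spic, a factor of macrophages that is also expressed in naive ES cells, stood at 0.62, -0.14 and 0.08 at 0h and -4.32, -4.61 and -4.53 at 8h. The change in Elf4 differed between the lines, by -2.22 (adjusted p = 0.0222).

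Of 10 EGF-family genes 2 ligands rose and the receptor fell (3 rose and none fell without scaling). Hbegf stood at 0.61, 0.15 and 0.53 at 0h and 3.30, 2.55 and 3.04 at 8h, with a change of 2.53 ± 0.21 (SE, adjusted p = 8.3e-07), and Ereg was at least 1.19-fold higher. Egfr stood at -2.19, -2.10 and -2.39 at 0h and -3.33, -3.34 and -4.29 at 8h, with a change of -1.42 ± 0.27 (SE, adjusted p = 0.00121). The other 7 of the 10 tested members were not called. In the FGF family 3 of 17 rose and 5 fell (1 without scaling), against 11.9% and 13.5% of all genes. Fgfr4 stood at -2.02, -2.23 and -1.92 at 0h and 2.06, 1.45 and 2.11 at 8h and moved opposite to Fgfr1 (-1.29) and Fgfr2 (-0.69), the receptors known to carry FGF4 signals in these cells. Fgf4, the ligand that naive cells make, stood at 5.78, 5.31 and 6.15 at 0h and 4.06, 3.86 and 3.77 at 8h, with a change of -1.85 ± 0.21 (SE, adjusted p = 1.2e-05). Fgf5, a marker of primed epiblast, was at least 1.27-fold higher at 8h, and Fgfbp1 (1.17) rose.

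Other secreted factors were split, with 7 of 22 higher and 4 lower. Besides Ccl20 and Vgf, Il11 (2.67, read well above background on 1 of 3 0h arrays), Cxcl14 (2.44), Vegfa (1.26), Pdgfb (0.70) and Vegfc (0.35) rose. Inhbb, an activin subunit, fell from 0.98, 0.38 and 0.77 to -1.49, -2.17 and -3.18. Cxcl12 was at least 3.85-fold lower, and Kitl (-2.06, read well above background on 2 of 3 8h arrays) and Spp1 (-1.56) fell. Of 19 genes for extracellular proteases and their inhibitors, 10 rose and 1 fell, with a median of 0.83, or 0.38 with bounds in place of fitted values. The urokinase receptor gene Plaur stood at 2.35, 2.45 and 2.32 at 0h and 5.23, 4.96 and 5.49 at 8h. Its protease Plau was at least 1.3-fold higher by its brightest probe, though another probe moved the other way. Also higher were Adamts1 (2.84, read well above background on 1 of 3 0h arrays), Mmp9 (2.09, read well above background on 1 of 3 0h arrays), Htra1 (1.58), Adam19 (1.57) and Adam8 (1.55). Timp2, an inhibitor of metalloproteases, was the fall (-2.74), while Timp1 rose (0.83). The changes in Timp2 and in Timp1 both differed from those in the Rescue-labelled line, by -2.04 and -2.05.

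Genes of the naive pluripotency network fell more often than they rose. Of 29 tested, 14 fell and 4 rose, with a median change of -0.70, and without scaling 10 fell and 4 rose. In such bulk RNA, fewer cells that express a gene and less RNA per cell cannot be told apart. Nanog had levels of 3.84, 3.42 and 3.64 on the 0h arrays (replicates a, b and c) and 0.48, -0.07 and -0.27 on the 8h arrays, with a change of -3.59 ± 0.34 (SE, adjusted p = 2.8e-06). That value is from its brightest probe, and a second probe moved by 0.85, so the 2 probes disagree. Klf4 stood at 5.86, 5.38 and 5.82 at 0h and 3.87, 3.26 and 3.26 at 8h, with a change of -2.23 ± 0.25 (SE, adjusted p = 1.5e-05). Klf2 stood at 5.18, 4.95 and 5.54 at 0h and 3.40, 3.35 and 2.76 at 8h. Both KLF factors were lower on every 8h array than on any 0h array, and 43.2% of all genes had groups apart in either direction. Tbx3, a T-box factor, stood at 4.45, 3.57 and 4.66 at 0h and 2.12, 1.20 and 1.79 at 8h, and Tfcp2l1, a target of LIF and STAT3, stood at 3.61, 2.73 and 3.06 at 0h and 1.88, 1.09 and 1.65 at 8h. Fbxo15 (-2.06), Jam2 (-1.89), Sox21 (-1.58), Tcl1 (-1.58), Prdm14 (-1.37), Tfap2c (-1.06), Il6st (-0.66), Fgf4 and Esrrb also fell. The 4 that rose were Gbx2 (2.72), Manba (2.10), Nr0b1 (1.06) and Klf5 (0.72). Zfp42 (Rex1) was not called, at -0.44 (adjusted p = 0.0228 with the slide as a replicate block), but fell in Rescue (-1.55), and the difference passed (adjusted p = 0.0351). Neither Dppa5a (-0.20) nor Nr5a2 (0.26) nor Stat3 (-0.13) was called.

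The core factors shared by naive and primed cells were split, and 7 of 15 were not called, Pou5f1 and Sox2 among them. Pou5f1 (Oct4) stood at 5.88, 6.06 and 6.14 at 0h and 5.99, 6.16 and 6.30 at 8h, overlapping, with a change of 0.12 ± 0.15 (adjusted p = 0.626). Sox2 stood at 4.62, 4.38 and 4.76 at 0h and 4.44, 4.47 and 4.55 at 8h, with a change of -0.10 (adjusted p = 0.674). Of 15 core genes 5 rose, among them Dppa4 (1.1), Utf1 (0.93), Foxd3 (0.73) and Dppa2 (0.43), and 3 fell, namely Tcf7l1 (-1.49), Tdgf1 (-0.51) and Trim28 (-0.33). Without scaling 3 rose and none fell.

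Genes of the formative and primed epiblast, the state that follows naive pluripotency, rose in most cases. Of 29 tested, 19 rose and 3 fell, with a median of 0.92, or 0.87 with bounds in place of fitted values, and without scaling 17 rose and 1 fell. Pou3f1 (Oct6), a POU factor induced early in the transition, had levels of -0.70, 0.22 and -0.37 on the 0h arrays (replicates a, b and c) and 3.44, 3.79 and 3.84 on the 8h arrays, with a change of 3.97 ± 0.22 (SE, adjusted p = 1.5e-08). Otx2, a homeobox partner of Oct4 in primed cells, stood at 1.91, 2.04 and 2.11 at 0h and 2.71, 3.12 and 2.86 at 8h, with a change of 0.87 ± 0.29 (SE, adjusted p = 0.0382). The call for Otx2 was lost without any 1 of the 6 arrays (adjusted p from 0.0553 to 0.119). Lef1, a Wnt effector, stood at -1.14, 1.14 and -1.23 at 0h and 1.55, 2.99 and 1.95 at 8h, with slide b high in both groups. Each of these 3 genes was higher on every 8h array than on any 0h array. The groups were likewise apart, in either direction, for 43.2% of all genes. Grhl2 (2.11), Cdh2 (1.90), Sox4 (1.82), Sox3 (1.05), Sox11 (0.95) and Tcf15 (0.92) rose as well. The falls were Sall3 (-1.90), Sall2 (-1.43) and Zic2 (-1.30). In the Rescue-labelled line 10 of the same genes rose and 8 fell, with a median of 0.13. The difference between the lines passed the test for 6 of the 29, against 2.28% of all genes: the change in KO lay above that in Rescue for 5, among them Pou3f1, Dnmt3a, Dnmt3l and Sall3, and below it for Cdh2.

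Dnmt3a and Dnmt3l, of de novo DNA methylation, moved in opposite directions in the lines. Dnmt3a, a de novo DNA methyltransferase, stood at -0.33, -0.21 and -0.80 at 0h and 1.02, 0.61 and 0.35 at 8h in the KO-labelled line, with a change of 1.11 ± 0.21 (SE, adjusted p = 0.00145). In the Rescue-labelled line it stood at 0.10, -0.15 and -0.05 at 0h and -0.63, -0.99 and -0.87 at 8h, a fall of 0.80 on the log2 scale. The difference of 1.91 ± 0.30 had an adjusted p of 0.00447. Dnmt3l, its cofactor, rose by 0.57 in KO and fell in Rescue, with a change of -0.49. Dnmt3b was not called in KO (0.37) and fell in Rescue (-0.83), a difference that was not called (adjusted p = 0.0731). Of 19 genes for DNA methylation and demethylation 3 rose and 3 fell in KO. The falls were Gadd45b (-1.95), Prdm14 (-1.37) and Tet1 (-0.40), and Gadd45a had the largest rise (1.62). Of the 19, 4 differed between the lines, Tet1 (0.83) being the one not named so far besides Gadd45a (1.21).

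**Figure D4:**
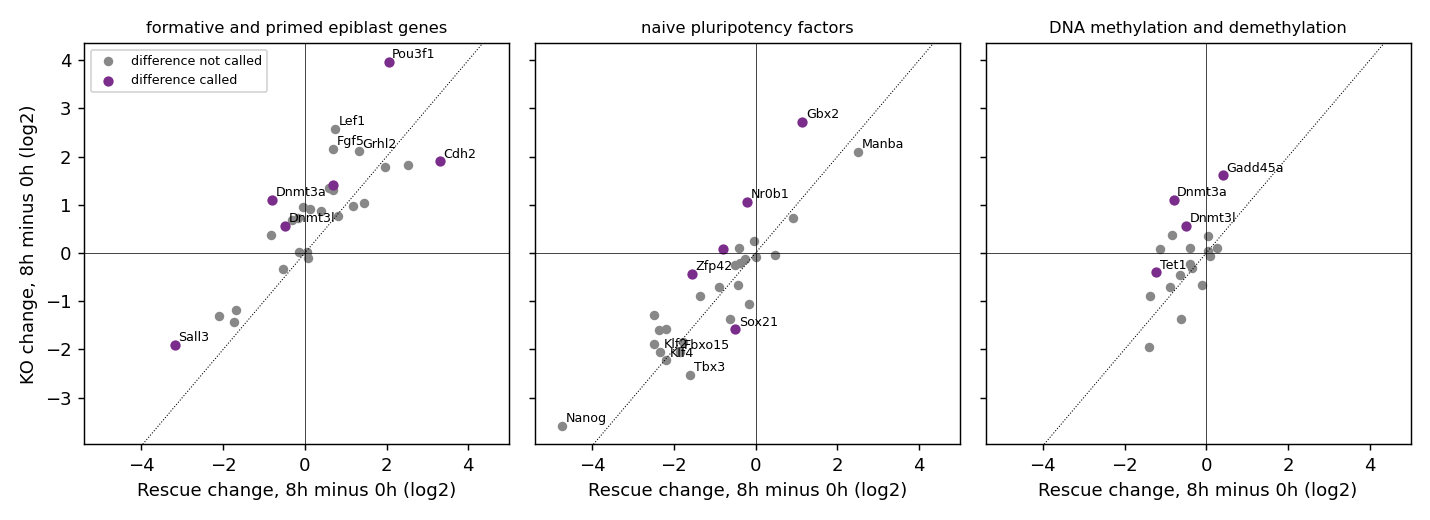
Change from 0h to 8h (log2) in the KO-labelled line against that in the Rescue-labelled line for members of 3 lists; purple points differed between the lines at adjusted p below 0.05, and the dotted line marks equal change. Pou3f1, Dnmt3a, Dnmt3l and Sall3 lie above the dotted line and Cdh2 below it, and Nanog, Klf2, Klf4 and Tbx3 are not among the purple points.

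Transcription factors of several early lineages appeared or rose. Of 19 genes of the primitive streak and mesoderm 10 rose and 1 fell, with a median of 1.01, or 0.81 with bounds in place of fitted values. T (brachyury), the founder factor of mesoderm, was at least 2.63-fold higher. Eomes, another T-box factor, stood at -2.69, -3.03 and -3.19 at 0h and -0.92, -1.53 and -0.66 at 8h. Sp5, a direct Wnt target, stood at -4.15, -3.05 and -4.08 at 0h and 0.27, 0.28 and 0.53 at 8h, with the smallest change on slide b. Msx1, a homeobox factor downstream of BMP, rose by 3.94, and Mesp1 (at least 1.67-fold higher), Cdx1 (1.70), Evx1 (1.50), Bmp2 (at least 1.75-fold higher) and Kdr (4.18, read well above background on 2 of 3 0h arrays) rose too.

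Of 24 trophoblast and simple epithelial genes, 9 rose and 4 fell (1 without scaling), with a median of 0.11. Cdx2 was not above background on any 0h array, and its 8h levels were 0.83, 0.39 and 1.14. Hand1 was at least 10.3-fold higher. Tead4 (2.50), Krt18 (2.35), Peg10 (1.25), Gata3 (1.22) and Krt19 (1.05) rose, whereas Ascl2 (-1.20), Id2 (-1.73), Tfap2c (-1.06) and Msx2 (-0.67) fell. Krt8, the usual partner of Krt18, was not called (-0.15). The summed level of 6 trophoblast markers was 3.71 to 6.05 at 0h and 6.28 to 7.73 at 8h, with 3 of the 6 read on at least 1 0h array and all 6 on at least 1 8h array. Of 27 primitive endoderm genes 6 rose and none fell, among them Gata6 (1.83), Krt18 (2.35), Rhox5 (1.95) and Afp (at least 3.8-fold higher). The summed level of 6 endoderm markers was 0.256 to 0.525 at 0h and 0.448 to 0.732 at 8h. Gata4, Sox17 and Pdgfra, which define that lineage with Gata6, were not called (-0.29, -0.41 and -0.49).

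Neural genes fell more often, 6 of 17 against 2 that rose (2 and 2 without scaling). Tubb3, the neuronal tubulin, stood at 2.34, 1.91 and 2.84 at 0h and 0.93, 0.56 and 0.81 at 8h. Hes3 was at least 4.2-fold lower, Hes5 at least 2.47-fold lower and Lhx2 at least 2.13-fold lower, and Map2 (-1.35) fell. Ncam1 fell by its brightest probe (-1.55), with another probe of the opposite sign.

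In the Nodal pathway, a TGF-beta type signal that ES cells produce for themselves, 11 of 27 genes fell and 5 rose (6 and 5 without scaling). Lefty1, a feedback inhibitor and target of Nodal, stood at 2.56, 3.05 and 2.19 at 0h and -2.41, -1.69 and -5.47 at 8h. It was well above background on 2 of 3 8h arrays, and its change of -5.79 was among the largest falls. Lefty2 stood at 1.46, 0.41 and 1.38 at 0h and -1.67, -1.85 and -2.24 at 8h. Nodal itself stood at 3.73, 4.07 and 3.87 at 0h and 2.55, 2.78 and 2.17 at 8h, with a change of -1.39 ± 0.14 (SE, adjusted p = 3.7e-06). Pmepa1 (-1.88), Smad3 (-1.66), Acvr1b (-0.85) and Tgfbr1 (-0.56) fell. The rises were Skor1 (4.39), Tgfbr2 (3.10), Tgfb1 (1.94), Skil (0.83) and Furin (0.80). Skor1 and Skil code for corepressors of SMAD proteins, and Tgfbr2 and Tgfb1 for the TGF-beta receptor and ligand.

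In the BMP pathway 7 of 20 genes fell and 5 rose (3 and 5 without scaling). Bmp4 stood at 2.23, 1.99 and 2.17 at 0h and 5.28, 4.27 and 4.89 at 8h, with a change of 2.68 ± 0.29 (SE, adjusted p = 7.8e-06), and Id1, a target of BMP signals, rose by 1.68. Other ID genes went the other way: Id2 stood at 1.88, 2.05 and 1.95 at 0h and -0.02, 0.80 and -0.10 at 8h, Id4 (-2.80, read well above background on 1 of 3 8h arrays) fell and Id3 was not called (-0.78), though it passed with the slide as a replicate block (adjusted p = 0.0464). Bmp7 (-2.11), Smad6 (-0.98) and Bambi (-0.87) fell.

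Of 27 Wnt pathway genes 10 rose and 5 fell (7 and 2 without scaling). Among the rises were Sp5 (4.12), the ligand gene Wnt7b (2.75), Lef1 (2.57), Cdx1 (1.70), Tcf7 (1.41) and Axin2 (0.60). Of other genes known as Wnt targets, Nkd1 (-0.67) and Znrf3 (-0.01) were not called, nor were Lgr5 and Rnf43, which were not above background on any of the 6 arrays. Sfrp1, a secreted Wnt antagonist, fell from 1.18, -0.19 and 0.39 to -2.51, -3.90 and -3.51. Tcf7l1 (-1.49), a repressor of the naive network, Fzd10 (-1.47), Porcn (-0.92) and Notum (-0.83) fell. Wnt6, which is outside that list, rose by 3.71.

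LIF acts through STAT3, and its 21 listed genes were split at 6 higher and 6 lower (6 and 2 without scaling). Klf4 (-2.23), Tfcp2l1 (-1.59), Spp1 (-1.56), Socs3 (-0.75), Cish (-0.67) and Il6st (-0.66) fell. Cebpd (2.82), Gbx2 (2.72), Socs2 (1.58), Junb (1.50), Klf5 (0.72) and Pim1 (0.65) rose. In the retinoic acid system 5 of 18 rose and 7 fell (5 and 1 without scaling). The 3 bounds above, for Aldh1a3, Cyp26a1 and Rxrg, were among the rises, as was Rarg (1.14). The largest fall was Dhrs3, which turns retinaldehyde back to retinol, from -0.03, -1.0 and -0.33 to -2.45, -3.43 and -3.07.

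Genes of growth arrest and cell death moved in both directions. Of 23 p53 target genes 10 fell and 4 rose (2 and 4 without scaling), with a median of -0.54. Btg2 (-1.49), Phlda3 (-1.38), Trp53inp1 (-1.27), Ei24 (-1.11), Cdkn1a (-1.04) and Sesn1 (-0.84) fell, while Pmaip1 (2.27), Perp (1.76) and Plk3 (1.66) rose. Trp53 itself was not called (0.00). Cdkn1a (p21), an inhibitor of cyclin-dependent kinases, stood at 1.72, 1.49 and 1.78 at 0h and 0.76, 0.49 and 0.59 at 8h, and the difference from the Rescue-labelled line, -1.18, passed (adjusted p = 0.0317). In the BCL2 family 5 of 16 rose and 5 fell (5 and none without scaling). Bcl2l11 (BIM), a promoter of cell death, stood at 0.94, 1.41 and 0.94 at 0h and 3.90, 3.84 and 3.72 at 8h, with a change of 2.72 ± 0.14 (SE, adjusted p = 8.7e-09). Hrk (2.15, read well above background on 2 of 3 0h arrays), Bid (0.96) and the survival gene Bcl2l1 (0.88) rose, and the death genes Bik (-1.13, read well above background on 2 of 3 8h arrays), Bbc3 (-0.83), Bmf (-0.60) and Bax (-0.47) fell.

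Of 25 cyclins and CDK inhibitors 7 fell and 3 rose (1 and 2 without scaling). Ccnd1 (cyclin D1) stood at 2.15, 2.15 and 2.11 at 0h and 1.15, 1.18 and 0.50 at 8h, with a change of -1.19 ± 0.19 (SE, adjusted p = 0.000345). Ccnd2 went the other way, from 1.53, 1.64 and 1.29 to 3.14, 2.55 and 2.83. E2f1 (-1.29), Cdkn1b (-1.1), Cdkn2c (-0.99) and Rb1 (-0.89) fell, and E2f2 (1.40) and Cdkn2b (0.81) rose. Of 27 DNA replication genes 5 fell and none rose, with a median of -0.25, and without scaling 1 fell and the median was 0.07. Among the falls were Orc1 (-0.97), Rrm2 (-0.72), Gins2 (-0.68) and Mcm6 (-0.54).

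Among the metabolic and biosynthetic lists, that of ATF4 and amino acid genes had the most rises. Of 23 ATF4 and amino acid genes 8 rose and none fell, with or without scaling, and the median was 0.49. Atf4, the transcription factor of amino acid stress, stood at 6.08, 5.88 and 6.29 at 0h and 6.98, 6.67 and 7.20 at 8h, and its call was lost without KO_0h replicate b or KO_8h replicate c (adjusted p up to 0.0643). Its targets Chac1 (2.45), Nupr1 (1.43), Mthfd2 (1.32) and Trib3 (0.82) rose. Of the 23 listed genes 15 were not called, among them Psat1 (0.70), Phgdh (0.11) and Asns (0.07). In the unfolded protein response 3 of 18 rose, namely Herpud1 (1.41), Xbp1 (1.04) and Edem1 (0.66), and Hsp90b1 (-0.45) fell (2 and none without scaling). Probes for Edem1 disagreed in sign. In ribosome biogenesis 5 of 29 rose and none fell, and none was called without scaling. The sterol list had 4 of 22 higher, among them Msmo1 (0.63) and Srebf2 (0.49), and 1 lower (2 and none without scaling). Fatty acid synthesis had 2 of 15 lower and none higher, and the respiratory chain 2 of 29 lower and none higher, at or below the share of all genes that fell, and without scaling none of either list was called. Glycolysis and hypoxia genes were split at 6 higher and 4 lower of 30 (5 and none without scaling), led by Pfkp (1.39), Vegfa (1.26) and Slc2a1 (0.82) upward and Hk1 (-1.08) downward. Of 26 lysosome genes 6 rose and 5 fell (4 and 1 without scaling), with Gpnmb (at least 1.45-fold higher), Manba (2.10) and Ctsl (1.31) upward and Glb1 (-1.09) downward.

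Cell shape and adhesion genes changed in both directions. Of 28 actin and SRF target genes 9 fell and 5 rose (none and 6 without scaling). The largest falls were Myl9 (-2.04), Cnn2 (-1.29), Cald1 (-0.73) and Tpm4 (-0.70), and 14 of the 28 were not called. Filip1l (at least 9.71-fold higher), Fhl2 (4.53), Tgfb1i1 (1.07), Zyx (1.03) and Ccn1 (0.92) rose. Actb (-0.01), Acta2 (-0.17) and Vcl (-0.24) were among those not called. Of 27 cadherin, junction and epithelial-mesenchymal transition genes 11 rose and 5 fell (11 and 1 without scaling). Among the rises were S100a4 (3.57), S100a6 (3.11), Twist1 (2.64, read well above background on 2 of 3 0h arrays), Cldn3 (2.27), Grhl2 (2.11), Ovol1 (at least 2-fold higher), Cdh2 (1.90), Cldn6 (1.30) and Epcam (1.21). Of genes known from mesenchymal cells, Fn1 (-0.75) fell, and Vim (0.33) and Zeb1 (-0.33) were not called. Snai1 (-1.47) and Snai2 (at least 3.33-fold lower), repressors of Cdh1, fell, and Cdh1 was not called (-0.23). Among integrins, laminins and collagens 6 of 25 rose and 5 fell (7 and 1 without scaling). Itga3 stood at -0.28, -0.05 and -0.41 at 0h and 2.81, 2.46 and 2.69 at 8h, and Itga7 (2.33), Lama3 (2.18) and Itgb1 (1.26) rose, while Lamb3 (-1.60), Itgb5 (-1.16) and Lama5 (-1.1) fell.

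The remaining lists were short, and their counts stand beside 11.9% of all genes higher and 13.5% lower. Orphan nuclear receptors had 3 of 16 higher, namely Nr6a1 (1.11), Nr0b1 (1.06) and Nr2f6 (0.99), and 1 lower, Esrrb. Of 12 estrogen receptor targets, listed because 4OHT binds estrogen receptors, 2 rose, namely Xbp1 (1.04) and Greb1 (0.83), and 3 fell (1 and 1 without scaling). Germline genes had 3 of 19 higher and 2 lower (2 and none without scaling), and 2-cell-like genes 2 of 14 lower, namely Zfp352 (-1.36) and Zfp365 (-1.11). Probes for Zfp352 disagreed in sign. Interferon response genes had 1 of 14 higher and 3 lower, namely Irf1 (-1.52), Stat2 (-0.79) and Irf9 (-0.70) (2 and 1 without scaling). Of 13 housekeeping genes 2 rose and 1 fell, and Gapdh was not called (-0.08).

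**Figure D5:**
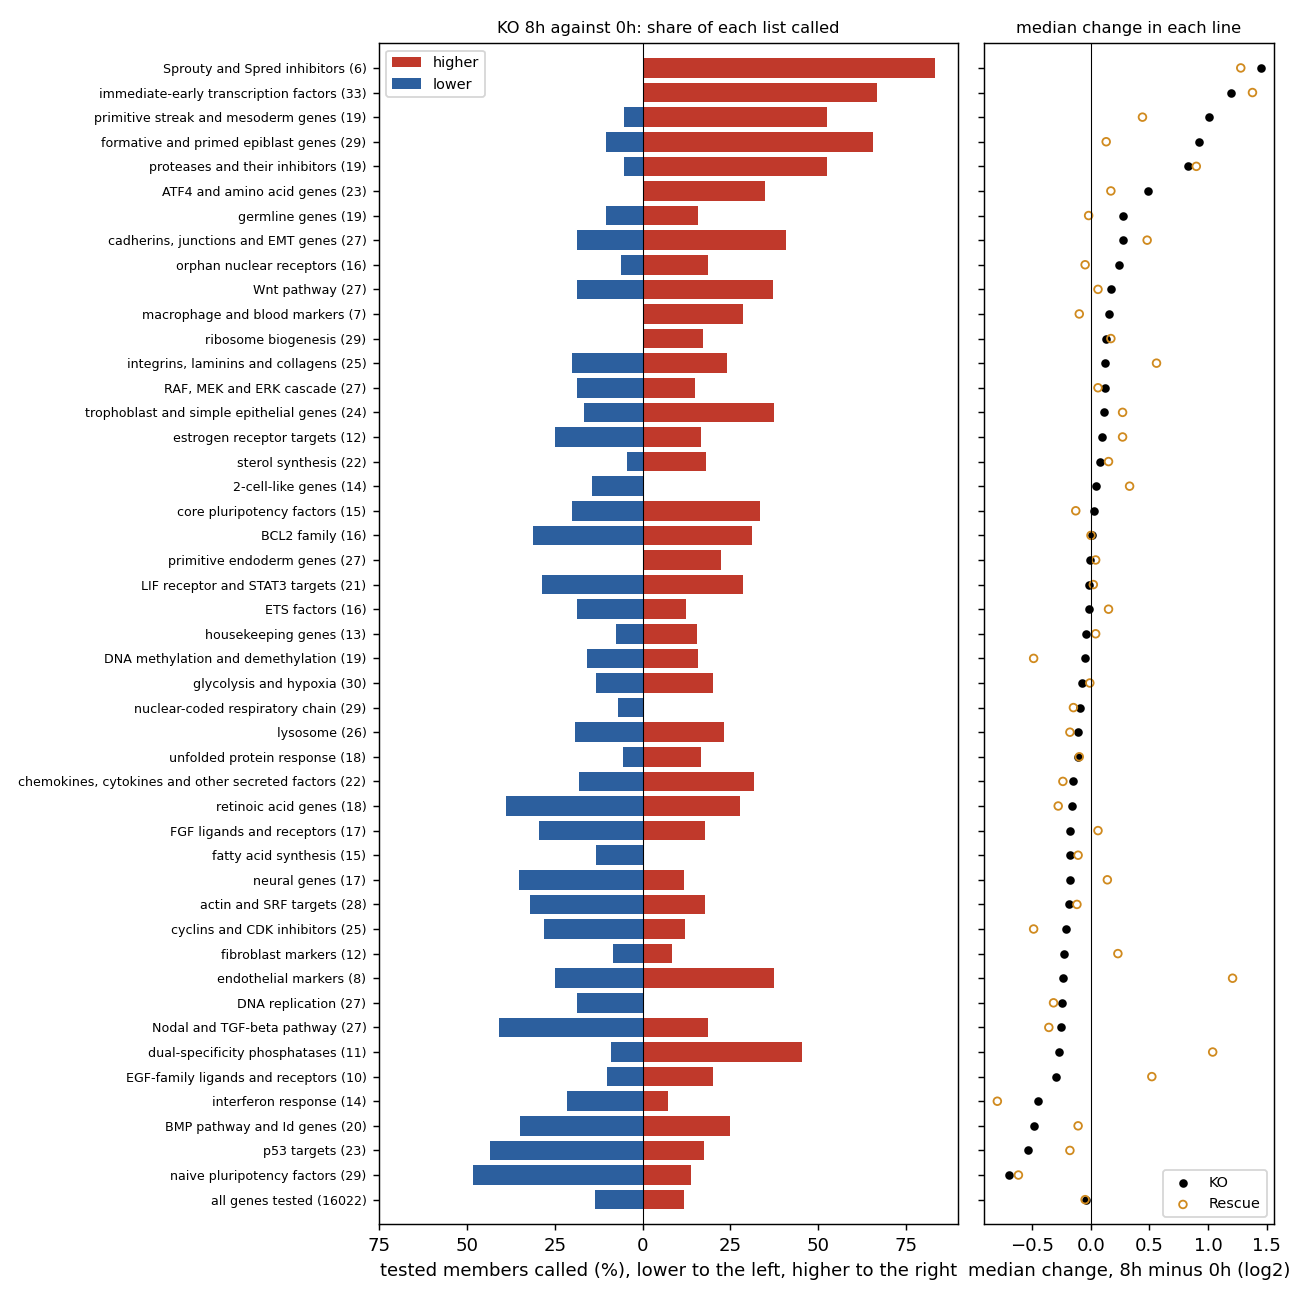
Left, percent of each list's tested members that fell (blue, to the left) and rose (red, to the right) from 0h to 8h in the KO-labelled line, with the number tested in brackets and all genes in the bottom row (13.5% lower, 11.9% higher); right, median change (log2) in the KO-labelled line (black) and the Rescue-labelled line (orange circles). In the KO-labelled line the Sprouty, immediate-early, primitive streak and formative lists have the highest medians, and the naive list the lowest.

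Markers of cell types other than ES cells were measured beside these lists. The summed level of 12 fibroblast markers was 3.77 to 4.75 at 0h and 16.2 to 22.9 at 8h. Of these markers Thy1 rose, from 0.83, 1.23 and 1.16 to 4.26, 3.87 and 4.39. Of the other 11 only Mmp2 was called, and it fell (-0.59); Col3a1 and Fap were not above background on any of the 6 arrays. Of 7 blood markers tested, Ptprc (CD45) was at least 8.81-fold higher and Cd68 rose (0.81), while Csf1r, Itgam and Gata1 were not called (-0.71, -0.15 and 0.17), with Csf1r passing once the slide was a replicate block (adjusted p = 0.00485). The summed blood level was 6.29 to 9.57 at 0h and 7.89 to 9.57 at 8h. Among 8 endothelial markers Kdr, Flt1 and Cldn5 rose, Tek and Eng fell, and the defining genes Cdh5 and Sox18 were not above background on any of the 6 arrays. Without scaling 3 of the 8 rose and none fell. Kdr stood at -2.80, -4.24 and -2.37 at 0h and 1.04, 0.67 and 1.43 at 8h. Flt1 (3.84, read well above background on 2 of 3 0h arrays) and Cldn5 (3.08, read well above background on 2 of 3 0h arrays) were also higher on every 8h array than on any 0h array. The groups were apart, in either direction, for 43.2% of all genes. The summed endothelial level was 2.36 to 2.55 at 0h and 4.57 to 6.5 at 8h. For 3 neural markers the sum was 4.18 to 7.43 at 0h and 1.83 to 2.17 at 8h. The part of other cell types in the results above was not tested.

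The lowest changes were spread over other functions. Trim47, a RING-finger protein, stood at 1.50, 0.73 and 1.31 at 0h and -3.10, -1.93 and -3.72 at 8h, with a change of -4.09 ± 0.36 (SE, adjusted p = 1.3e-06) and the smallest change on slide b. Myo1f, a myosin, fell by 3.78, and Mvb12b, Dkk3, Dglucy, Vax2os, Mcf2 and Foxo6 had changes between -3.51 and -3.18. Aqp3, a water and glycerol channel, stood at 2.36, 2.03 and 2.34 at 0h and -1.04, -0.94 and -0.72 at 8h and its changes on slides a, b and c were -3.41, -2.97 and -3.06. The remainder were Klk1 (-3.12), Islr2 (-3.08), Chst8 (-3.05), Klk1b3 (-3.03), Cited4 (-3.01), Klk1b5 (-2.99) and Crxos (-2.87), besides Sfrp1, Nanog, Lefty2 and Inhbb above. Each value is from the gene's brightest probe. Another probe moved far less for Mvb12b (-1.03), Vax2os (-0.42) and Crxos (-0.23). The 3 kallikrein genes are paralogues, and whether their probes read them separately was not tested. Of the 20 lowest, 19 also fell in the Rescue-labelled line; the exception was Inhbb (-0.64).

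Most of the response was shared with the Rescue-labelled line, which shares no array with this comparison. Of the 1913 genes that rose in KO 1316 also rose in Rescue, which is 68.8% of the KO list and 63.1% of the 2086 in Rescue. Of the 2164 that fell, 1491 fell in both, 68.9% of the KO list and 57.8% of the 2581 in Rescue. The interaction test, of the KO change minus the Rescue change, called 365 genes, or 2.28%, of which 171 (1.07%) had the higher change in KO and 194 (1.21%) the lower. Among them 153 were called in both lines, 92 in KO alone and 120 in Rescue alone. Opposite calls in the lines were made for 32 genes, and Dnmt3a, Dnmt3l, Fzd7, Lgr4, Lrp2 and Dusp14 are among them. All 32 passed the test of the difference, but it uses the same arrays and spread, so this is no separate support. Fzd7, a Wnt receptor, rose by 0.86 in KO and changed by -0.98 in Rescue (adjusted p for the difference = 0.00784). The count of 365 is sensitive to single arrays. It was 227 without KO_0h replicate a, 238 without KO_8h replicate a, and 237, 184 and 218 without Rescue_8h replicates a, b and c. Without scaling it was 54, and without KO_8h2h replicate b, an array with 88.6% of probes above background, which is outside the comparison but adds to the spread, it was 755.

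The largest differences among genes that rose in KO, with a higher change than in Rescue, were in Meox1, a homeobox factor of mesoderm (3.72), Cdx2 (3.39), Ptprb (3.04), Ccdc3 (2.96), Skor1 (2.86) and Maml2 (2.72). Of these only Skor1 was above background on all arrays of both lines' groups, so the other values are not measured folds. Skor1 stood at -2.86, -2.06 and -3.06 at 0h and 1.84, 1.53 and 1.82 at 8h in KO, and at -1.47, -1.56 and -1.13 and 0.05, 0.24 and 0.16 in Rescue. Cdx2, not above background on the KO 0h arrays, stood at -1.87, -2.03 and -2.08 on the Rescue 0h arrays, well above background on all 3, and at 0.81, 0.76 and 0.81 at 8h. For Pou3f1 every KO 0h array was below every Rescue 0h array, while the 8h arrays of the lines overlapped: the Rescue values were 1.42, 1.32 and 2.05 and 3.76, 3.58 and 3.60. Egr1 had the reverse pattern. It rose by 2.60 in KO and by 4.62 in Rescue, where it stood at -0.50, 0.16 and 0.24 at 0h and 4.60, 4.60 and 4.57 at 8h (difference -2.02, adjusted p = 0.000334). Every KO 0h array was above every Rescue 0h array, and every KO 8h array was below every Rescue 8h array. How many of all genes lie apart between the lines at 0h or at 8h was not counted. The largest differences with a lower change in KO, led by Ifi202b, Serpinb11, Apbb1ip, Prl2c5 and Ano1, were in genes that rose in Rescue and were not called in KO.

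The KO arrays titled 8h2h give a further set of values for the same genes. They are compared with the 8h arrays, which also enter the main comparison, so an error in the 8h arrays enters both with opposite signs and the values are set side by side without a test of their relation. In that comparison 7.35% of genes were called, 4.14% higher and 3.2% lower. The count of 1177 genes was 769 without KO_8h replicate a, 576 without KO_8h replicate c and 934 without KO_8h2h replicate b. That last array, whose values stand second below, had 88.6% of probes above background, against 52.8% and 48.4% on replicates a and c. Egr1 was -0.90, -0.64 and -0.64 on the 8h2h arrays, a change of -4.88 from 8h, after 2.60 from 0h to 8h. For Dusp6 the values were 0.06, 0.36 and 0.10, a change of -4.41 after 2.25. For Myc they were -1.68, -1.14 and -1.39, and for Spry4 -5.50, -3.41 and -4.65. In all 4 genes the 8h2h arrays lay below the 0h arrays too. Of the 33 immediate-early genes 19 fell and none rose from 8h to 8h2h, with a median of -1.01. Pou3f1 went to 1.70, 1.97 and 1.81 and Otx2 to 1.15, 1.41 and 1.42, changes of -1.87 and -1.57. Dnmt3a, at 0.90, 0.28 and 0.50, and Esrrb, at 4.30, 3.26 and 4.00, were not called from 8h to 8h2h (-0.10 and 0.10). Klf4 and Klf2 rose again, by 1.64 and 1.97, and Nanog was not called (1.18, adjusted p = 0.0508). By the source names the order of these last 2 groups would be the reverse, with the 8h2h arrays after 8 h of 4OHT alone.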

How the data were processed

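RNA of 18 mouse ES cell samples was hybridised to 1-colour Agilent arrays, 3 in each of 6 groups. Per the file headers, the authors' intensity values came from Agilent Feature Extraction 12.0.1.1 (design on build mm9), already background-subtracted, detrended and not scaled between arrays. The deposited flags for signal above background and for outlier spots were used as 0 or 1. The labels name Cy5 and the headers a green channel, and the signal was read as the headers name it. The submitters' value table held the same intensities.

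Each array's log2 intensity, computed from the deposited values, had the 75th percentile over non-control spots subtracted. Of 56605 probes 32994 were named, through RefSeq accessions. Spots of a probe were averaged, and a gene with several probes was read from its brightest. Of 1598 called genes with several probes, 167 had probes that changed in opposite directions. Probes were kept where 1 or more of the 6 groups had the probe flagged above background on each of its 3 arrays. A model with a mean for each group was fitted over all 18 arrays with limma 3.58.1 in R 4.3.3, and p-values were Benjamini-Hochberg adjusted over 16022 genes, 2-sided, at 0.05. Bounds set the bright group's mean against the dimmest level above background, or the dim probe's own where higher. The method was tested on simulated data. The number of arrays limits the precision.

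Slide letters are shared by the groups, and deviations of same-lettered KO 0h and 8h arrays correlated at 0.248, 0.311 and 0.238, so the letters pair the arrays. Named genes were the 20 highest and 20 lowest changes read on all 6 arrays, the 10 largest bounds each way, up to 6 called members of each of 46 lists, the 8 largest differences between lines each way and a fixed set of markers. Members beyond 6 in a list were added after their values were seen. The members and lists were chosen with earlier results of these data known. Promoters are from RefSeq. Results for some listed genes are not reported here.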

Additional observations from a re-analysis of the deposited data

Results flagged for a closer look

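The change from 0h to 8h differed between the KO-labelled and the Rescue-labelled line for 365 genes by the interaction test in limma (adjusted p below 0.05). The values that follow are the change in KO minus the change in Rescue, on the log2 scale, for the genes named here. They do not say which line stood higher at 8h. Fhl2 and Dusp4, for example, had lower mean levels in KO at both times, while Skor1 had a higher one at 8h. With 3 arrays a group, no single array was tested for standing apart.

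Among genes read above background on all 12 arrays of both lines at 0h and 8h, the change was higher in KO for Skor1 (2.86), Efr3b (2.25), Cdc42ep1 (2.15), Wnt6 (2.15), Pou3f1 (1.92), Dnmt3a (1.91), Fzd7 (1.83), Krt18 (1.70), Gata1 (1.63), Adam19 (1.58), Gbx2 (1.58), Fhl2 (1.56), Lrp2 (1.40), Itga3 (1.30), Sall3 (1.28), Nr0b1 (1.26), Dusp4 (1.22), Gadd45a (1.21), Thy1 (1.18), Zfp42 (1.12), Dnmt3l (1.06), Lgr4 (1.05), E2f2 (0.94), Lin28a (0.85) and Tet1 (0.83). It was lower in KO for Mvb12b (-2.46), Inhbb (-2.35), Elf4 (-2.22), Trim47 (-2.11), Timp1 (-2.05), Dusp14 (-2.05), Timp2 (-2.04), Egr1 (-2.02), Ncam1 (-1.84), Dkk3 (-1.82), Fzd10 (-1.79), Smad3 (-1.40), Cdh2 (-1.40), Cdkn1a (-1.18), Errfi1 (-1.13), Sox21 (-1.09), Maff (-1.05) and Msmo1 (-0.96).

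For the next genes at least 1 of the 12 arrays was not above background, so the values are fitted and not measured folds. The change was higher in KO for Meox1 (3.72), Cdx2 (3.39), Atoh1 (3.23), Ptprb (3.04), Ccdc3 (2.96), Maml2 (2.72), Tal2 (2.70), Filip1l (2.53), Atf3 (2.26), Adamts1 (1.86) and Grm6 (1.86). It was lower in KO for Ifi202b (-5.49), Serpinb11 (-5.00), Apbb1ip (-4.77), Prl2c5 (-4.60), Ano1 (-4.57), Plcl1 (-4.23), Stac (-4.14), Slc14a1 (-4.13), Rnf144b (-2.59), Sirpa (-2.45), Il11 (-1.82) and Egr3 (-1.66).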

How the results depend on the processing

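Of 4077 genes called, 3017 were also among the 3173 called with normexp background correction, 3335 among 3784 with quantile normalization, 1749 among 1828 without scaling between arrays, 3384 among 3422 with no filter on dim probes, 2989 among 3368 when only the 6 KO arrays were fitted, and all 4077 among 5037 without the high-background KO array titled 8h2h. The calls from the submitters' value table were the same 4077. Without scaling 381 genes were called lower. Asking for at least 2-fold as well left 1707 (941 higher and 766 lower). Leaving out 1 array gave 3049 to 3649 calls, 1517 to 1728 of them higher and 1532 to 1963 lower. With the slide letter as a replicate block 4645 genes were called, 4047 of them among the 4077, and of 369 genes followed singly the block gained the call for 5, given in the report, and lost none.

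The count of differences between the lines was 54 without scaling, 755 without the high-background array, and 184 to 464 with 1 array left out. For Rescue 8h against 0h the count of 4667 was 2027 without scaling and 3528 to 4230 with 1 array left out. For KO 8h2h against 8h, 1177 genes became 340 without scaling and 576 to 1298 with 1 array left out. Leaving out single arrays in these last 2 comparisons was chosen after seeing the data. Over the 369 genes and all settings, 6418 values kept their side of the threshold. Of the others 472 kept direction and lost the call, 37 gained it and 1 reversed. Direction was not compared where a gene was called in neither fit. The reversal was that of Araf under the mean of its probes (0.102). The cause was not tested. Leaving out any 1 of the 6 arrays ended the call for Itgb5, Otx2, Ptpn11 and Tgfbr1. For a further 49 of these genes, leaving out at least 1 array ended it: Araf, Atf4, Axin2, Bax, Bik, Bmf, Bmp2, Cdkn2b, Cdx1, Dppa2, Dusp14, Edem1, Egr2, Eng, Ereg, Fgfr2, Foxd3, Furin, Fzd7, Greb1, Hes5, Hk1, Hsp90b1, Lhx2, Lrp2, Map2, Mcm6, Mknk2, Mmp2, Myl9, Notch2, Nupr1, Pim1, Sall2, Smad6, Snai2, Sos1, Spred3, Srebf2, Stat2, Tcf15, Tdgf1, Tet1, Tfap2c, Trim28, Vegfa, Vegfc, Zfp365 and Zic2. With 3 arrays a group, small changes of dim genes cannot be resolved.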

Other observations

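Several gene families outside the lists above were picked after their values were seen, so their counts are descriptions with no test. In KO the counts stand beside 11.9% of all genes higher and 13.5% lower. Of 16 Notch receptors, ligands and HES or HEY repressors, 7 fell in the KO-labelled line and none rose, with a median change of -0.81 on the log2 scale. They were Hes3 (at least 4.2-fold lower), Hes5 (at least 2.47-fold lower), Hey1 (-1.24), Jag1 (-0.98), Dll3 (-0.81), Notch3 (-0.81) and Notch2 (-0.74), and in the Rescue-labelled line 9 of the 16 fell and 1 rose. Of 14 S100 genes, which code for small calcium-binding proteins, 7 rose and none fell, led by S100a4 (3.57), S100a6 (3.11) and S100a10 (1.97), and in Rescue 9 rose. Of 17 tissue kallikreins, a cluster of secreted serine proteases, 7 fell and 2 rose. Receptor-type tyrosine phosphatases had 7 of 16 higher and 1 lower, among them Ptprn (4.17), Ptprr (at least 2.47-fold higher) and Ptprs (1.30). Claudins had 5 of 19 higher and none lower. Ephrins and Eph receptors were split, with 5 of 20 higher and 7 lower, and semaphorins had 5 of 18 higher and 2 lower.

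Single genes outside the lists were Ptgs2 (2.29), the inducible cyclooxygenase, Ptgs1 (1.48), the constitutive one, and Ptger2 (3.80, read well above background on 1 of 3 0h arrays), a prostaglandin receptor gene, all of which rose. Among cytochrome P450 genes Cyp1a1 (at least 3.43-fold lower), a target of the aryl hydrocarbon receptor, fell, and Cyp2b10 (at least 4.04-fold higher) rose. These were also named after their values were seen.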
